A study of Mus musculus with 2031 samples.

Results

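The 9 genes described here were the 4 inhibitor of DNA binding genes Id1, Id2, Id3 and Id4, the bone morphogenetic protein (BMP) receptor genes Bmpr1a, Bmpr1b and Bmpr2, and Smad1 and Smad5. They were found by symbol among the 49671 genes of the deposited counts, and all 9 had a single row. Single cells of the cortex and hippocampus of C57BL/6J mice at postnatal day 56 were dissociated with papain, sorted as living cells that carry the astrocyte surface antigen ACSA-2 and lack the oligodendrocyte antigen O1, and sequenced as 1 Smart-seq2 library per well, 2030 cells in all. The cortical cells came from 2 suspensions of 1 animal each, littermates of a single litter, and the hippocampal cells from 2 suspensions, each pooled from 4 littermates of a litter of its own. No transgene or treatment is given for the mice. Differences between areas and between litters, or between single and pooled mice, cannot be told apart. The suspension was the replicate, with 541 and 521 cortical cells and 464 and 504 hippocampal cells.

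Id proteins are small helix-loop-helix proteins without a DNA-binding region. They pair with E proteins such as Tcf4 and so keep these from binding DNA with tissue-specific partners, and in the adult brain they are known from stem cells, astrocytes and endothelium. BMP ligands bind type 1 receptors (Bmpr1a, Bmpr1b) together with the type 2 receptor Bmpr2. The type 1 receptor then phosphorylates Smad1 and Smad5, which enter the nucleus with Smad4, and Id genes are among their best known direct targets.

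All counts are reads, not molecules, and ran from 600758 to 3238215 per cell on genes (median 1458411). Levels are the counts of a gene per 1e+06 gene counts (CPM) of the summed cells of a type in a suspension, with at least 5 cells per sum, and are means ± SD over suspensions. Cell types and the astrocyte subtypes AST1 to AST5 are the clusters of the authors, made from these same counts. Levels across them are therefore a description without a test, and the 9 genes had been chosen from earlier results of these data, and which values entered that choice is not recorded. The 1781 typed astrocytes were 657 AST1, 555 AST2, 452 AST3, 91 AST4 and 26 AST5 cells, beside mural cells (27 and 12 in cortex, 48 and 47 in hippocampus), 30 endothelial, 17 neuronal, 11 microglial and 9 oligodendrocytic cells. Sums of the main markers went with the labels, with the exceptions given here. The 6 astrocyte markers summed to 13406 to 25000 CPM in the astrocyte subtypes. The 6 endothelial markers summed to 15175 to 20997 CPM in endothelial cells and at most 3.55 CPM in any AST1 sum. In AST4 the astrocyte sum came mostly from Slc1a3 (12940 CPM). Aldh1l1, Gjb6 and Aqp4 had only 71.5, 159.1 and 226.7 CPM there, against 563.9, 1604 and 1821 CPM in AST1. Gjb6 and Aqp4 were low in AST5 too (497.7 and 465.8 CPM). Mural cells held 3043 to 3484 CPM of the astrocyte markers, mostly Atp1b2 (3017 CPM), the gene of the sorted antigen. The 4 oligodendrocyte markers reached 819 CPM in AST5, and the 7 mural markers 445 CPM in AST4. The endothelial sums also held 10008 to 17265 CPM of the 7 mural markers, with Acta2 and Tagln at 0, against 48932 to 58889 CPM in mural cells.

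On GRCm38, Id1 lies on chr2:152736251-152737410 (plus strand), Id2 on chr12:25093799-25097140 (minus), Id3 on chr4:136143497-136145755 (plus) and Id4 on chr13:48261228-48266026 (plus). The libraries do not mark the strand, so reads of Id4 and of the antisense gene A330033J07Rik that overlaps it cannot be told apart, and likewise those of Bmpr1a and Gm17110. Bmpr2 overlaps Gm38125 and Smad5 overlaps 3 small genes, each on the same strand, so their counts are uncertain in the same way. Among the transcripts of other genes, no 75-base stretch of the 4 Id genes recurred. Id4 and Bmpr1b were the members with counts in astrocytes and at or near 0 in vessel cells, and a sequence before a listed start of each is shown for that reason. Each is the 250 bases before a RefSeq start (GRCm38.p6) that hold no base of an annotated exon, at chr13:48260866-48261115 (plus strand) for Id4 and chr3:141982265-141982514 (minus strand) for the most distal of 3 listed Bmpr1b starts. The annotated Bmpr1b gene spans chr3:141837136-142169425 (minus strand). Its window therefore lies inside the gene, far downstream of the annotated 5' end, and is not the sequence before the whole gene.
Id4: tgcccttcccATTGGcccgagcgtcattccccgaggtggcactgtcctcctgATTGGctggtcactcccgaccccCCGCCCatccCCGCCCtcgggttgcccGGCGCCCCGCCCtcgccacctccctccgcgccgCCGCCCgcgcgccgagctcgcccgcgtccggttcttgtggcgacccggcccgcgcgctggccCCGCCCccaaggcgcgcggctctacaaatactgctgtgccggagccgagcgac
Bmpr1b: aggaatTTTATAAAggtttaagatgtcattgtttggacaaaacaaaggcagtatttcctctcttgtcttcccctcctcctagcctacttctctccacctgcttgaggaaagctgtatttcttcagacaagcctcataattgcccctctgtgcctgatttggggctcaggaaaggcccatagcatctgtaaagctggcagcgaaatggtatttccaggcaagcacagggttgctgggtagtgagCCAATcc
Capitals mark matches on either strand to the searched motifs GGCGCC (a GC-rich element that Smad1 and Smad5 can bind), CCAAT (a common promoter box), GGGCGG (the GC box), TATAAA (the TATA box) and CACGTG (an E-box). The Id4 window had 75.6% G and C, with 1 match to GGCGCC, 2 matches to CCAAT and 5 matches to GGGCGG. In the Bmpr1b window G and C made up 46.8%, with 1 match to CCAAT and 2 overlapping matches to TATAAA. As background, 32851 windows of 250 bases before listed starts were searched, whether or not they held exon bases. Of these, 9.59% held the first of these motifs, 33.8% the CCAAT box, 32.7% the GC box, 12.4% the TATA box and 6.02% the E-box. A match is a run of letters and not a shown binding site.

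Within astrocytes, Id2 and Id3 were the abundant members when levels were set per kilobase of exon. Over the 4 sums of all typed astrocytes the level was 408 ± 40.2 CPM per kb for Id2 and 320 ± 42.7 for Id3, against 51.1 ± 7.87 for Id1 and 44.3 ± 2.35 for Id4. Bmpr1b was the highest of the receptor genes with 30.1 ± 2.87 CPM per kb, followed by Bmpr1a with 8.64 ± 1.84. Bmpr2 (2.17 ± 1.05), Smad5 (2.49 ± 0.648) and Smad1 (2.26 ± 1.11) were low, and their SDs overlapped.

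Detection in single cells followed another order. At least 1 count of Id2 was found in 93.3% of astrocytes, of Id4 in 57.8%, of Id3 in 51.9% and of Id1 in 15.9%. For the receptors the shares were 43.5% (Bmpr1b), 15.3% (Bmpr1a) and 12.4% (Bmpr2), and for Smad5 and Smad1 7.02% and 4.66%. Counts of the scarce members came from few cells, since the top 1% of astrocytes held 52.5% of all Smad1 counts and 48.1% of Smad5 counts, against 4.65% for Id2. The CPM of Smad1 or Smad5 in a sum can thus turn on single cells.

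**Figure D1:**
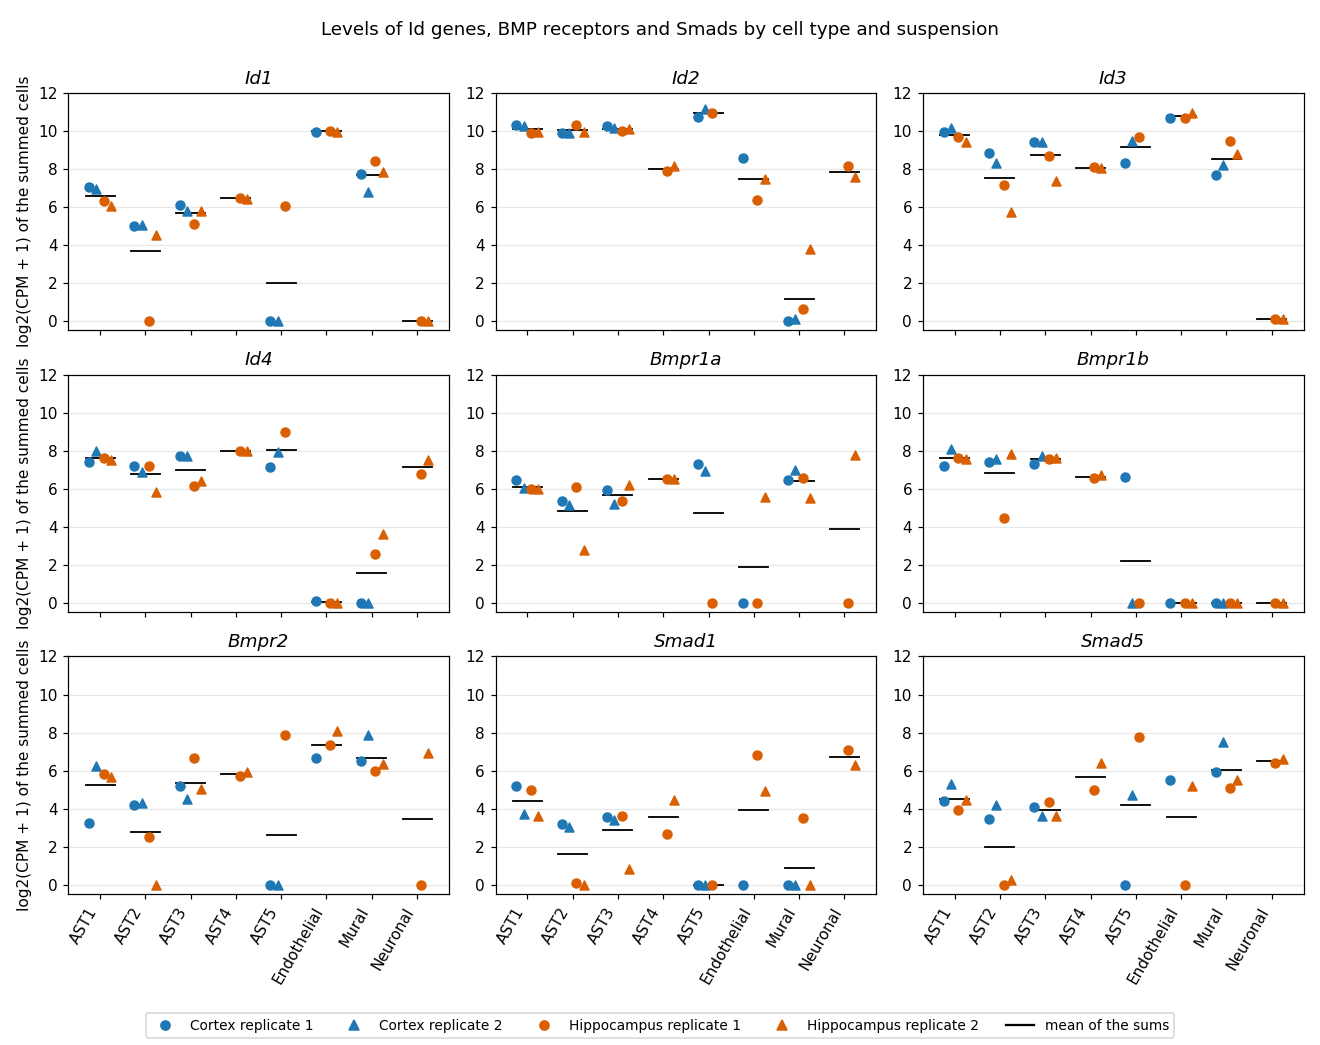
Level of each gene as log2(CPM + 1) (vertical axis) in the sums of each cell type or subtype (horizontal axis), 1 point per suspension with at least 5 cells, cortex in blue and hippocampus in orange, and a line at the mean of the points. Id1 and Id3 were highest in endothelial cells, Id2 was high in every astrocyte subtype but AST4 and near 0 in mural cells, and Bmpr1b was at 0 in endothelial, mural and neuronal sums.

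Id1 was led by vessel cells. Its level was 1003 ± 27.5 CPM in endothelial cells (n = 3 suspensions, 996, 1034 and 980), where 93.3% of cells had a count. These 3 sums held only 9, 6 and 12 cells. In mural cells the Id1 level was 222.4 ± 97.2 CPM (n = 4, from 107.1 to 344.7). In AST1 cortex had 131.98 and 123.7 CPM and hippocampus 79.4 and 64.1. The sums of AST4, found in hippocampus, had 87.3 and 85.2 CPM. AST3 had 68.2, 53.96, 33.1 and 53.8 CPM in the same order of suspensions and AST2 30.9, 32.6, 0 and 22.3. The ranges of neighbours in this order overlapped except between endothelial and mural cells, between AST4 and AST3, and between AST3 and AST2. Id1 had no count in the 17 neuronal, 11 microglial and 9 oligodendrocytic cells, which allows shares of cells with a count of up to 17.6%, 27.3% and 33.3%.

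Id2 showed the reverse picture, high in astrocytes and near absent from mural cells. AST5 had the highest level in CPM (1986 ± 291.7, n = 3), and AST3 (1110 ± 77.4), AST1 (1104 ± 172.01) and AST2 (1042 ± 152.7, each n = 4) overlapped. AST5 cells had fewer gene counts per ERCC spike-in count (median 15.8 against 27.1 in AST3). The AST5 level was not among the differences checked on the ERCC scale. AST4, which carried the neural stem cell markers of the list at 936 to 1166 CPM against at most 166.4 in the other subtypes, stood below with 233.6 and 283.6 CPM, and 69.2% of AST4 cells had a count after thinning to 600000 counts, against 92.4% to 100% in the other subtypes. Hippocampal AST1 had 3.69 times the Id2 level of AST4. Mural cells had 0 and 0.0676 CPM in cortex and 0.567 and 12.8 in hippocampus, with a count in 5.22% of the cells and 10 counts or more in 1.49%. Endothelial cells (374.8, 80.5 and 173.4 CPM), neuronal cells (283.9 and 187.05) and AST4 overlapped.

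Id3 was highest in endothelial cells (1628, 1619 and 1957 CPM) and next in AST1, with 992, 1149, 804 and 671 CPM. AST5 had 319.9, 699 and 817 CPM in 3 sums of 6 to 10 cells and overlapped AST1. AST3 followed with 683, 674, 412 and 162.97 CPM, and AST2 with 459, 318.6, 142.5 and 52.3 CPM. In each of the 4 suspensions the order was AST1, AST3, AST2. The 2 hippocampal AST2 sums held only 10 and 22 cells. Mural cells ran from 203.3 to 698 CPM and overlapped all 5 subtypes, AST1 and AST4 (269.03 and 258.8) included. The 17 neuronal cells had 0.0644 and 0.0705 CPM, from single reads.

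Id4 was an astrocyte and neuronal gene in this sort. AST5 had 296.7 ± 190.4 CPM (n = 3), AST4 253.9 and 254.6 CPM, AST1 200.6 ± 35.4, AST3 142.4 ± 75.8 and AST2 115.6 ± 41.8 (n = 4). Of these neighbours AST4 and AST1 did not overlap, while AST3 and AST2 did. The neuronal cells, all from hippocampus and with 2112 to 2425 CPM of the 4 neuronal markers, had 107.5 and 180.5 CPM, and 58.8% of them had a count. Id4 was at 0.0264 ± 0.0457 CPM in endothelial and at 4.08 ± 5.42 CPM in mural cells, where 2 cells had a count.

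Bmpr1b, a type 1 receptor, was found in astrocytes and not in vessel cells or neurons. It had 198.5 ± 52.8 CPM in AST1, 187.8 ± 21.9 in AST3, 150.6 ± 89.7 in AST2 (n = 4) and 92.2 and 102.6 in AST4. AST5 had 95.9, 0 and 0 CPM, with a count in 1 of 26 cells, and so overlapped the cells at 0. No count was found in any mural, endothelial or neuronal cell, which allows up to 2.24%, 10% and 17.6% of cells with a count. Bmpr2 had its highest means in endothelial (176.5 ± 87.7 CPM, n = 3) and mural cells (115.5 ± 76.5, n = 4), and these ranges overlapped each other. The next types were AST5 (76.8 ± 133.03), neuronal cells (0 and 120.2), AST4 (50.8 and 59.4), AST1 (47.2 ± 28.2) and AST3 (46.9 ± 35.1). AST4 lay below both vessel types, and AST1 below the endothelial range. Of neighbours in this order, AST3 and AST2 (10.2 ± 9.23 CPM) alone did not overlap. Bmpr1a overlapped between every pair of neighbours in its order, from neuronal cells (0 and 216.3 CPM) to endothelial cells (0, 0 and 46.7). Smad1, a transducer of the receptors, had its highest mean in the neuronal cells (134.3 and 77.8 CPM), where 8 of 17 cells had a count. Endothelial cells (0 to 112.6 CPM) overlapped them. Smad5 had 83.2 and 97.2 CPM in the neuronal cells, from 2 cells.

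**Figure D2:**
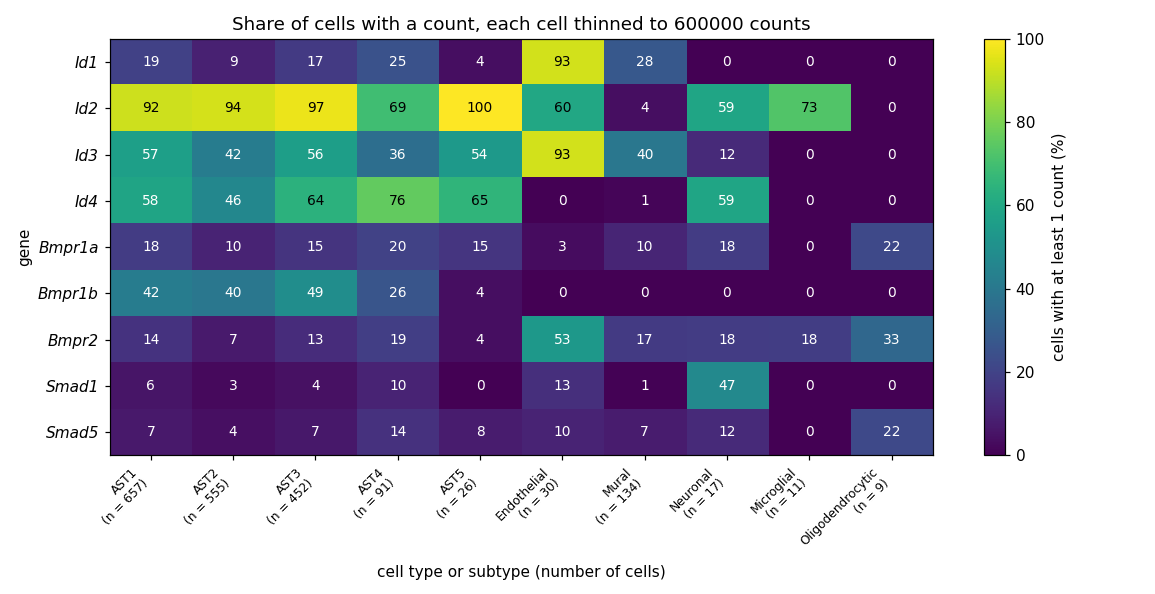
Share of cells with at least 1 count (%, colour and number) of each gene (rows) in each cell type or subtype (columns, number of cells in brackets), each cell thinned to the same 600000 gene counts. Id2 was found in over 92% of AST1, AST2, AST3 and AST5 cells, and Bmpr1b in 39.6% to 49.1% of AST1, AST2 and AST3 cells and in 0% of vessel cells.

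Types of the same suspension were then set against each other, counting a member as higher when it was so in every suspension that held both. The same count over all genes of at least 10 CPM is given beside it as background. AST1 was above AST2 for Id1, Id3, Id4, Smad1 and Smad5, 5 of 9 members, against 8.21% of all genes. On shares of cells after thinning, Smad1 was not above AST2 in every suspension. Mean levels were 4.65 times higher for Id1, 3.72 times for Id3 and 1.74 times for Id4. Each suspension weighs the same in these means, though the hippocampal AST2 sums held only 10 and 22 cells. Differences from AST2 in every suspension rest on these small sums too. With all cells of a type pooled, Id1 had 81.49 CPM in AST1 and 30.95 in AST2. Id3 had 795.3 and 366.8 CPM, and Id4 193.6 and 126.8. The pooled AST1 cells were mostly hippocampal and the pooled AST2 cells mostly cortical. AST1 was above AST3 for Id1, Id3 and Smad1 (3 of 9, all genes 7.37%), 1.91 times for Id1 and 1.87 times for Id3. AST3 was above AST2 for Id1, Id3 and Bmpr2 (3 of 8 members at 10 CPM, all genes 10.2%). In no suspension was AST1 below AST2 or AST3 for Id1 or Id3. On shares of cells after thinning, the Smad1 and Id3 differences of AST1 and AST3 were not seen in every suspension (for Id3 66.7%, 74.5%, 53.9% and 53.6% of AST1 cells against 69.5%, 66.2%, 40% and 25.6% of AST3 cells). Immediate early genes, which respond to dissociation among other stimuli, summed to 251.2 to 390.9 CPM in AST1, 288.3 to 835 in AST2 and 994 to 2089 in AST3, and their part in these differences was not tested.

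AST4 against AST1 could be compared in the 2 hippocampal suspensions. Id1, Id4, Bmpr1a and Smad5 were higher in AST4 in both (43.5% of all genes were so), by 1.203 times for Id1 and 1.34 times for Id4, though not on shares of cells for Bmpr1a. Id2, Id3 and Bmpr1b were lower in both (22.5% of all genes), with AST1 at 2.80 times the AST4 level for Id3 and 1.95 times for Bmpr1b. A share of 43.5% of all genes means that the 4 higher members are near the background. AST4 also had more immediate early gene counts (2796 and 4281 CPM), whose part was not tested.

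Mural cells were above the astrocytes of the same suspension for Id1 and Smad5 in all 4 suspensions, 2 of 8 members at 10 CPM and so near the 19% of all genes, and below for Id2, Id4 and Bmpr1b (3 of 8, all genes 22%). Id1 was 3.75 times higher in mural cells. The Smad5 difference was not seen in every suspension on shares of cells after thinning. Endothelial cells were above astrocytes for Id1, Id3 and Bmpr2 in all 3 suspensions (3 of 9 members, 18.1% of all genes), by 15.97, 2.95 and 4.03 times, and below for Id2, Id4, Bmpr1a and Bmpr1b (4 of 9, 27.7%). These folds rest on endothelial sums of 9, 6 and 12 cells that also held mural markers. Immediate early genes summed to 6175 to 23948 CPM in mural and 9187 to 17031 in endothelial cells, and their part was not tested.

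Cells with a count of one Id gene were compared with cells without it. With each cell thinned to 600000 counts, Id1 was detected in 25.2% of astrocytes with Id3 and in 6.31% of those without (means of 4 suspensions), a difference of 18.8 ± 4.02 percentage points that was positive in 4 of 4. Read the other way, Id3 was found in 80.3% of cells with Id1 and 45.04% of cells without. Id4 was found in 74.6% of cells with Id1 and 53.7% of cells without (20.9 ± 1.84 points), and in 65.4% of cells with Id3 and 48.3% of cells without (17.1 ± 2.24 points), again in 4 of 4 suspensions. Of the 6 pairs of Id genes, 5 were positive in every suspension, and Id2 with Id4 was so in 3 of 4 (2.62 ± 1.89 points). Over all pairs of the 5989 genes with a count in 10% to 95% of astrocytes, 17.1% were positive in every suspension. With all other genes that share was 17.07% for Id1, 20.9% for Id2, 28.3% for Id3 and 42.9% for Id4. As a correlation of detection over the cells of a suspension (mean of 4; cells share suspension and subtype makeup), the Id pairs ran from 0.054 for Id2 with Id4 to 0.26 for Id1 with Id3, beside a median of 0.016 over all pairs. With all other genes the median was 0.016 for Id1, 0.019 for Id2, 0.026 for Id3 and 0.040 for Id4. The value of Id2 with Id4 is thus near the median of Id4.

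Within AST1 alone all 6 pairs were positive in every suspension, against 10.54% of all pairs of genes. With all other genes that share was 18.2% for Id1, 22.2% for Id2, 21.6% for Id3 and 25.5% for Id4. Only 50 AST1 cells over the 4 suspensions lacked Id2, so the AST1 pairs with Id2 rest on few cells. In AST1 Id3 was detected in 91.2% of cells with Id1 and 53.3% of cells without, and Id4 in 77.8% and 50.1%. In AST3 the mean differences were smaller, 20.3 ± 16.9 points for Id3 by Id1 and 10.3 ± 14.2 points for Id4 by Id1, positive in 4 and 3 of 4 suspensions. The pairs with Id2 in AST3 cannot be read, since only 14 cells lacked Id2. There Id1 by Id2 was positive in 4 of 4 suspensions, Id3 by Id2 in 3 and Id4 by Id2 in 1. After thinning to 50000 counts, Id3 by Id1 (16.7 ± 20.5 points) and Id4 by Id1 (2.47 ± 11.1) in AST3 were positive in 2 of 4. Bmpr1b, a receptor upstream of the Id genes, was detected in 46.1% of astrocytes with Id1 and 40.6% of those without (5.46 ± 7.52 points, 3 of 4 suspensions). Bmpr1b was positive with 15.6% of all other genes in every suspension, a share near the background. By the other Id genes its differences were 5.399 ± 4.01 points for Id2 and 6.35 ± 2.43 for Id3 (4 of 4 each) and 5.51 ± 5.17 for Id4 (3 of 4).

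**Figure D3:**
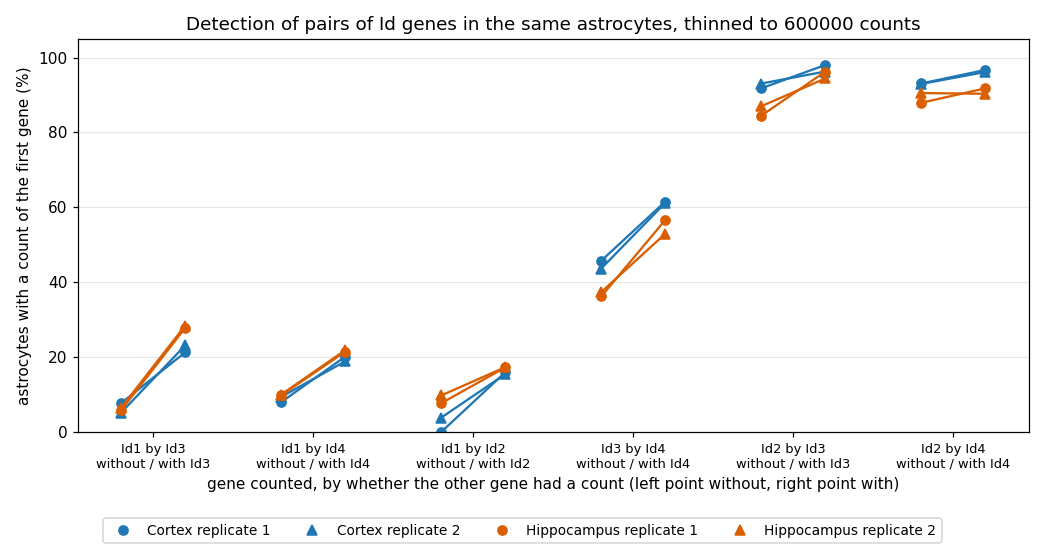
Share of astrocytes with a count of the first gene (%, vertical axis) in cells without (left point) and with (right point) a count of the second gene, for the 6 pairs of Id genes, 1 line per suspension, each cell thinned to 600000 counts. All lines rise except 1 of the 4 for Id2 by Id4, and Id1 by Id3 rises from a mean of 6.31% to 25.2%.

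The likeness of single genes to the Id genes was measured as Pearson's r of log2(CPM + 1) over the 17 astrocyte subtype sums, which share suspensions and depth. The nearest of 8712 genes were Dennd1a for Id1 (r = 0.97), Aldh1l1 for Id2 (r = 0.95), Ankrd29 for Id3 (r = 0.85) and Sem1 for Id4 (r = 0.88). Id1 was at 0 in the cortical AST5 sums and in 1 hippocampal AST2 sum, all of few cells. Such sums lie far below the rest on this scale, and their weight in r was not tested. Aldh1l1 encodes a folate enzyme used as a pan-astrocyte marker, and it was, like Id2, low in AST4 (71.5 CPM) and high in AST5 (1183 CPM). Next came Pdia4 and Kdm5b for Id1, Rorb and Chchd10 for Id2, Nsmce2 and Nme7 for Id3, and Mrpl13 and Psph for Id4. Over the 26 sums of all types (9758 genes) the nearest included Fance, Cmtm6 and Msn for Id1 (r from 0.87 to 0.91), Ndufa4, Eno1 and Prnp for Id2 (0.90 to 0.91), Rgcc, H2-K1 and Selenop for Id3 (0.89 to 0.90), and Tom1l1 and Gpm6a for Id4 (0.97 and 0.95). The lists over subtypes and over all types shared no gene.

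The second question was whether the members differ between hippocampus and cortex within the same kind of cell. It was tested with the quasi-likelihood test of edgeR on the sums of each suspension, 2 against 2, with Benjamini-Hochberg adjustment over all genes. Since the members were chosen from these data, their p-values set a difference against the spread of the suspensions and are no independent support. Called genes (adjusted p under 0.05) were 0 of 19160 in all astrocytes (0.00%), and likewise 0 in AST1, AST3, mural cells and the interaction of area and subtype, so no member was called. Unadjusted p under 0.05 was reached by 2609 genes in astrocytes, 2023 in AST1, 1547 in AST3, 961 in mural cells and 1559 in the interaction. DESeq2 on the same sums called 9.70% of genes in astrocytes, 17.5% in AST1, 13.8% in AST3, 12.9% in mural cells and 10.2% in the interaction, so the calls depend on the tool. An exact permutation test of 2 against 2 suspensions cannot give a two-sided p below 0.3333.

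In all astrocytes, Bmpr2 had the largest log2 fold change of the members with edgeR. Its level was 23.3 and 25.1 CPM in cortex and 63.8 and 44.3 CPM in hippocampus, and the areas did not overlap. The edgeR log2 fold change was 1.18 (SE 0.235, 95% interval 0.51 to 1.85, p = 0.00847, adjusted p = 0.231; exact permutation p = 0.3333). When only the 6482 genes with a count in at least 10% of the cells were tested, a filter chosen after seeing the data, Bmpr2 was called by edgeR (log2 1.22, adjusted p = 0.0148), as were 8.19% of those genes. DESeq2 called it too (adjusted p = 0.000188), as did limma on the mean log2 level of cells (log2 0.42, adjusted p = 0.0210, all genes 11.9%). Within the 10 dates of reverse transcription that held both areas, Bmpr2 was higher in hippocampus on 9, with a median log2 ratio of 1.201. The dates split the cells of the same cortical and hippocampal suspensions and are not independent repeats. This holds for every count of dates given below, and no share of all genes was set beside these counts. Shares of cells with a Bmpr2 count after thinning were 9.33% and 9.02% in cortex and 15.5% and 14.7% in hippocampus. In AST1 the Bmpr2 areas overlapped (8.56 and 75.9 against 55.0 and 49.2 CPM), and the first cortical sum alone decided its low mean. They overlapped in AST3 too (35.6 and 21.5 against 98.8 and 31.5 CPM). AST2, the subtype with the lowest mean of Bmpr2 (10.2 CPM), had only 10 and 22 of its 555 cells in the hippocampal suspensions, and its part in the Bmpr2 difference was not tested.

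Id2 had the smallest error of the members. It stood at 1092 and 1064 CPM in cortical and 909 and 910 CPM in hippocampal astrocytes, a log2 fold change of −0.22 (SE 0.0422, edgeR adjusted p = 0.228; DESeq2 adjusted p = 0.000525; limma on the mean log2 level of cells −0.79, adjusted p = 0.00220). Both hippocampal sums lay below both cortical sums, and Id2 was lower in hippocampus on 7 of 10 dates. AST4, the subtype low in Id2, held 41 and 48 hippocampal and 2 and 0 cortical cells, and its part in this difference was not tested. Within AST1 the levels were 1267 and 1238 CPM in cortex and 947 and 964 in hippocampus (log2 −0.36, SE 0.0846, edgeR adjusted p = 0.257, DESeq2 adjusted p = 2.33e-15), lower in hippocampus on 9 of 10 dates. In AST3, 1198 and 1145 CPM stood against 1020 and 1079 (log2 −0.10, SE 0.0802, adjusted p = 0.861).

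Taken over all astrocytes, Id1, Bmpr1a, Bmpr2 and Smad5 had both hippocampal sums above both cortical ones (20.7% of all genes did), and Id2 had them below (30.9%). Id3 (601 and 530 against 668 and 496 CPM) and Id4 (170.98 and 162.6 against 183.08 and 165.5 CPM) overlapped, with log2 fold changes of 0.07 (95% interval −0.42 to 0.55) and 0.09 (−0.16 to 0.34). The makeup of the astrocytes differed between the areas, AST1 being 57 of 461 and 55 of 499 cortical astrocytes and AST2 10 of 393 and 22 of 428 hippocampal astrocytes.

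Within AST1, Id1, Id2, Id3 and Bmpr1a had both hippocampal sums below both cortical ones, 4 of 9 members against 19.5% of all genes. Id1 had 131.98 and 123.7 against 79.4 and 64.1 CPM (log2 −0.80, SE 0.216, edgeR adjusted p = 0.260, DESeq2 adjusted p = 8.17e-05). Id3 had 992 and 1149 against 804 and 671 CPM (log2 −0.51, SE 0.155, edgeR adjusted p = 0.302, DESeq2 adjusted p = 0.00157). By date, Id1 was lower in hippocampus on 6 of 10 and Id3 on 8 of 10. The log2 ratios of single dates ran from −2.01 to 5.49 for Id1 and from −1.86 to 0.68 for Id3. Over all astrocytes the Id1 estimate had the other sign (log2 0.36, SE 0.137, adjusted p = 0.398). Id4 overlapped (170.4 and 251.4 against 196.3 and 184.4 CPM). Endothelial markers in these AST1 sums stood at 1.43 and 0.0905 CPM in cortex and 0.640 and 3.55 in hippocampus, at or near 0.

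In AST3, Id4 had the lowest log2 fold change of the members. Its level was 208.6 and 207.2 CPM in cortex and 69.2 and 84.8 CPM in hippocampus, and 75.3% and 78.8% of cortical AST3 cells had a count after thinning against 29.2% and 43.9% of hippocampal ones. The edgeR log2 fold change was −1.38 (SE 0.190, 95% interval −1.90 to −0.85, p = 0.00178, adjusted p = 0.380), and DESeq2 gave an adjusted p of 1.56e-12 and limma a log2 value of −3.25 with an adjusted p of 0.00933 (all genes 1.26%). Id4 was lower in hippocampus on 9 of 10 dates (median log2 −1.23, range −4.26 to 0.23), which split the same suspensions. Id3 had 683 and 674 against 412 and 162.97 CPM (log2 −1.19, SE 0.471, edgeR adjusted p = 0.544, DESeq2 adjusted p = 0.267, limma log2 −3.36, adjusted p = 0.0154). The hippocampal Id3 sums lay far apart from each other, and the log2 value was −1.98 without the first and −0.68 without the second. All 4 Id genes, and so 4 of 9 members, had both hippocampal AST3 sums below both cortical ones, against 24.2% of all genes. For Id1 the areas were barely apart, and without 1 suspension its log2 value ran from −0.84 to −0.11. Immediate early genes moved the same way, 2089 and 1771 CPM in cortex and 994 and 1108 in hippocampus. The median AST3 cell also had more genes detected in cortex (2628 and 2584 against 2051 and 2112) and more gene counts per ERCC spike-in count (29.4 and 30.5 against 20.8 and 22.8). Their part in the Id4 and Id3 differences was not tested.

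Whether the area difference of a member differs between AST1 and AST3 was tested as an interaction, on 8 sums. The AST1 and AST3 sums come from the same 4 suspensions and the fit treats them as independent. For Id4 it was 1.27 on the log2 scale (AST1 minus AST3, SE 0.324, p = 0.00803, edgeR adjusted p = 0.439, DESeq2 adjusted p = 0.0230). For Id2 it was −0.25 (SE 0.1004, edgeR adjusted p = 0.546, DESeq2 adjusted p = 0.00261), but its sign turned with ERCC scaling (0.18) and with limma (0.24). For Id3 it was 0.69 (95% interval −0.68 to 2.06). Receptors and Smads gave intervals that spanned 0, from −1.29 to 0.93 for Bmpr1b and from −4.42 to 2.60 for Bmpr2.

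**Figure D4:**
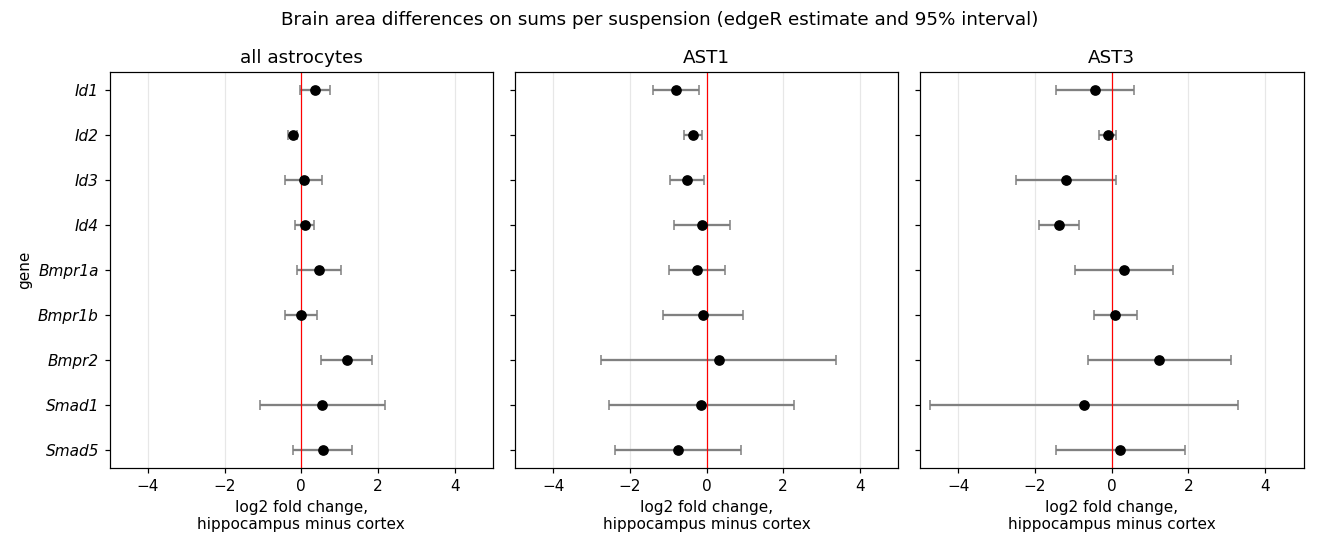
The log2 fold change of each gene (hippocampus minus cortex, horizontal axis; dots with 95% intervals from edgeR on 2 against 2 suspensions) in all astrocytes, AST1 and AST3. The intervals leave out 0 for Bmpr2 (1.18) and Id2 (−0.22) in all astrocytes and for Id4 (−1.38) in AST3. They also do so for Id1 (−0.80), Id2 (−0.36) and Id3 (−0.51) in AST1. The intervals of Smad1 are wide, and no adjusted p was under 0.05.

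In mural cells the estimates for Id1 and Id3 had the opposite sign to those in AST1 and AST3. Id1 had 212.9 and 107.1 CPM in cortex and 344.7 and 224.999 in hippocampus (log2 0.94, SE 0.553, edgeR adjusted p = 1.00), and Id3 203.3 and 288.2 against 698 and 437 CPM (log2 1.35, SE 0.371, edgeR adjusted p = 0.535, DESeq2 adjusted p = 0.00826). Id1 and Id3 had both hippocampal mural sums above both cortical ones (21.5% of all genes of at least 10 CPM did). Id2 and Id4 did so too, but with means below 10 CPM and at or near 0 in cortex (Id4 0 and 0 against 4.90 and 11.4 CPM), and no fold is given. DESeq2 called Id2 (adjusted p = 0.0108) and Id4 (adjusted p = 9.44e-05) there, from counts in 2 and 4 of the 48 and 47 hippocampal cells for Id2 and in 1 cell of each suspension for Id4. Bmpr2 (90.2 and 228.7 against 61.5 and 81.3 CPM) and Smad5 (59.2 and 177.02 against 33.4 and 45.2 CPM) had them below (13.7%). Immediate early genes were also higher in hippocampal mural cells (16279 and 6175 against 23948 and 20943 CPM), as were the endothelial markers (265.8 and 342.9 against 397.5 and 464.2 CPM), and their part was not tested.

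Partners of the Id proteins and the rest of the BMP pathway were described from lists of genes. Of the 3 E proteins, Tcf4 was the main one in astrocytes, at 471 ± 13.7 CPM with a count in 90.1% of cells, and Tcf12 (47.9 ± 9.97) and Tcf3 (46.02 ± 4.58) were lower. Among 13 other basic helix-loop-helix factors Bhlhe41 (345.9 ± 31.5), the Notch target Hes5 (308.7 ± 119.2) and Bhlhe40 (244.2 ± 56.7) led.

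Few BMP ligands were found in astrocytes. Bmp7 (64.2 ± 41.2 CPM, 14.9% of astrocytes) and Gdf10 (37.1 ± 8.66) were the main ones of 14 ligand genes, and the next, Bmp6, had 0.586 ± 0.625 CPM. Ligands summed to 146.4 and 143.1 CPM in cortical astrocytes and 61.3 and 61.8 in hippocampal ones. Mural cells had 189.7 to 312.6 CPM of ligands, led by Bmp4 (136.8 ± 58.3 CPM) and Bmp5 (88.6 ± 38.2), both under 0.001 CPM in astrocytes. The neuronal cells had a higher ligand mean than mural cells (384.4 against 244.3 CPM), from 2 sums of 464.2 and 304.6 CPM. Of 17 extracellular modulators, which summed to 633 and 679 CPM in cortical and 324.3 and 362.98 in hippocampal astrocytes, the antagonist Chrdl1 had 208.8 ± 196.7 CPM, Fstl1 112.5 ± 10.3 and the protease Bmp1 72.2 ± 16.5.

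Other receptors of the family were scarce in astrocytes, with Acvr1 at 23.8 ± 7.71, Tgfbr1 at 19.3 ± 3.74 and Acvr2a at 14.3 ± 4.69 CPM. The endothelial type 1 receptor Acvrl1 had 754 ± 128 CPM in endothelial cells (n = 3), where Bmpr1b was at 0. Of the co-receptors and decoys, Neo1 had 67.4 ± 10.01, Rgma 40.7 ± 5.62 with a count in 62.3% of astrocytes, and the decoy Bambi 19.9 ± 8.71 CPM. Intracellular members were led by Smad2 (25.98 ± 2.09), Ski (14.5 ± 3.62) and Smurf1 (13.3 ± 4.08 CPM), and of 8 targets other than Id genes Hey1 (104.8 ± 22.04) and Msx1 (38.1 ± 22.5 CPM) were highest beside Bambi. In the comparison of areas 0 genes of any of these lists were called by edgeR in astrocytes, AST1, AST3 or mural cells, of 4 ligands, 9 modulators, 7 other receptors, 10 intracellular members and 3 E proteins tested in all astrocytes. Median log2 fold changes there were −0.49 for ligands, 0.30 for modulators, 0.38 for other receptors and 0.12 for E proteins, beside 0.01 over all genes. They were 0.65 for targets other than Id genes, 0.29 for co-receptors and decoys, 0.20 for intracellular members and −0.10 for other basic helix-loop-helix factors. The median of the modulators thus had the opposite sign to the difference of their sums.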

How the data were processed

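Raw counts per gene were deposited by the authors, who aligned the Smart-seq2 reads with STAR 2.5.2b to GRCm38.p5 with ERCC spike-ins and counted them with HTSeq; each sample is 1 cell, and no molecular identifiers were used, so limits on counts of 0 (3 cells) cover counting error only. Cell types are those of the authors. Counts were read from the files of single cells; 32 columns of the deposited table of all cells were compared with them and had equal totals, and its other 1999 columns were not used. No-feature reads (12.2%) and ambiguous reads (4.68%) were left out. Cells were singly sorted and no doublet caller was run.

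Counts were summed per type and suspension (at least 5 cells). Areas were compared with edgeR 4.0.16 (TMM, filterByExpr, robust quasi-likelihood), with DESeq2 1.42.0 and limma 3.58.1 as alternatives, and the fits were tested on simulated data. Shares of cells used cells thinned to 600000 counts. Library dates are shared by same-numbered suspensions of the 2 areas; deviations of such pairs correlated at r = 0.012 over 8808 genes in astrocytes, and the replicate block called 0 genes. The members, the 16 gene lists and the rules were chosen with earlier results of these data known. Named genes were the members, the 3 leading genes of a list and the 3 nearest genes of each Id gene; Bmp4, Bmp5 and Acvrl1 were chosen after their values were seen. One gene that this rule names is not reported here. Sequences are from RefSeq (8 of 9 members matched).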

Additional observations from a re-analysis of the deposited data

Results flagged for a closer look

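Some sums stood apart within a set of 4, measured as the gap to the nearest sum over the range of the set: Id2 in AST2 (0.8602), Id2 in mural cells (0.9556), Bmpr1a in AST1 (0.8786), Smad1 in AST3 (0.8365) and Smad1 in mural cells (1). For normally distributed values chance gives this in about 1 of 20 sets, 44 sets were examined, and each set mixes both areas. That rate does not hold for Id2 and Smad1 in mural cells, where sums were at or near 0. The mural Smad1 counts came from 1 cell.

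The area difference had opposite signs in mural cells and astrocyte subtypes, without overlap of the areas in either, and this contrast was not tested. For Id1 the mean CPM of hippocampus minus cortex was −56.13 in AST1 and −17.63 in AST3 but 124.8 in mural cells. The Id1 areas in AST3 were barely apart. Without 1 suspension the Id1 log2 value ran from −0.84 to −0.11 in AST3 and from 0.50 to 1.59 in mural cells. For Id2 it was −297 in AST1 and −121.8 in AST3 against 6.637 in mural cells, where the sums were near 0 (0 and 0.0676 CPM in cortex, 0.567 and 12.8 in hippocampus) and rest on at most 4 cells each. For Id3 the values were −332.7, −391 and 321.9 CPM, and for Id4 −130.9 in AST3 and 8.169 in mural cells, the last from 1 cell of each hippocampal suspension. For Id2 and Id4 the mural values are too few to read a direction from.

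Cells outside the typed set also held counts. Of the 15 cells without a type, 86.67% had a count of Id2, 26.67% of Id3 and 26.67% of Id4. Another 33 cells, all from 1 cortical suspension, had no entry in the list of cell types used here. Of these, 9.091% had a count of Id1, 96.97% of Id2, 36.36% of Id3 and 36.36% of Id4. For the receptors the shares were 15.15% (Bmpr1a), 39.39% (Bmpr1b) and 18.18% (Bmpr2). The authors count more astrocytes than were typed here, so some of these cells may carry a type there.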

How the results depend on the processing

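The number of genes called between areas depended on the tool and the filter. Against 0 with edgeR, DESeq2 called 1858 genes in astrocytes, 2711 in AST1, 2067 in AST3, 1373 in mural cells and 1756 in the interaction. Limma on the mean log2 values of cells called 1430 in astrocytes, 150 in AST3 and 1 in the interaction. Testing genes with a count in 10% of the cells (chosen after seeing the data) gave 531 in astrocytes, 34 in AST3 and 4 in the interaction, and ERCC scaling and thinning gave 1 each in astrocytes. Leaving out 1 suspension gave 0 calls in each comparison. With the replicate block 0 genes were called in each comparison (Bmpr2 in astrocytes 1.16, Id4 in AST3 −1.39).

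Signs turned for the following members, and the cause was not tested. In astrocytes Id3 was −0.16 with ERCC scaling, −0.56 with limma and −0.12 in cells without vascular markers, Id4 −0.13 with ERCC scaling and −0.17 with limma, and Bmpr1b 0.0043 with the replicate block and 0.030 with the 10% filter. In AST1 Id4 was 0.026 with limma, and without vascular markers Bmpr1b was 0.032 and Smad5 0.21. In AST3 ERCC scaling gave −0.17 for Bmpr1a, −0.40 for Bmpr1b and −0.30 for Smad5, limma −0.16 for Bmpr1a, −0.71 for Bmpr1b and 0.067 for Smad1, and thinning −0.049 for Bmpr1b. In the interaction ERCC scaling gave 0.046 for Id1, 0.18 for Id2 and 0.28 for Bmpr1b, limma 0.24 for Id2, 0.085 for Bmpr1a, 0.48 for Bmpr1b and −0.18 for Smad1, and the replicate block 0.0029 for Bmpr2. ERCC scaling moved the median of all genes in astrocytes from 0.01 to −0.20 and in AST3 from −0.04 to −0.54.

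Without 1 suspension, astrocyte values ran from −0.16 to 0.26 (Id3), −0.18 to 0.18 (Bmpr1b) and −0.23 to 1.05 (Smad1). In AST1 they ran from −0.39 to 0.22 (Id4), −0.50 to 0.47 (Bmpr1b), −0.54 to 2.67 (Bmpr2) and −1.01 to 0.81 (Smad1), in AST3 from −0.20 to 0.69 (Bmpr1a), −0.11 to 0.32 (Bmpr1b), −3.62 to 0.19 (Smad1) and −0.20 to 0.56 (Smad5), and in the interaction from −0.84 to 0.17 (Id1), −0.39 to 0.15 (Bmpr1b) and −2.17 to 1.75 (Bmpr2). For the differences described at most length the values were 0.89 to 1.42 (Bmpr2 in astrocytes), −0.95 to −0.66 (Id1 in AST1) and −1.54 to −1.22 (Id4 in AST3). The areas did not overlap in these 3, so their sign was bound to hold and only the size is informative. Of the 30 differences between types, 25 to 30 were shared with each other scale or count threshold, and 0 had the opposite sign. Leaving out 1 suspension is no check of them, since each was counted only if it held in every suspension. Mural cells without vascular markers could not be compared, since there were 0 such cells.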
